A study of Mus musculus with 6 samples.

Results

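The genes analysed here encode the nicotinic acetylcholine receptor of muscle and the proteins that gather it under the nerve terminal at the neuromuscular junction. They are 10 genes chosen by name, *Chrna1*, *Chrnb1*, *Chrnd*, *Chrng*, *Chrne*, *Musk*, *Lrp4*, *Dok7*, *Rapsn* and *Colq*, out of 55401 genes in the count matrix, and each was found on 1 row. RNA was sequenced from C2C12, an immortalized line of mouse myoblasts whose cells fuse to form myotubes once serum is reduced, at 2 d post differentiation in DMEM with 2% horse serum. The 3 *Phf2* KO libraries came from cells transfected with a pool of plasmids for Cas9, ZsGreen1 and guide RNAs against *Phf2*, a gene for a histone demethylase. The 3 control libraries, labelled wild type, came from mock cells that received the plasmid with a guide that has no match in the mouse genome. Cells of each kind were sorted once for ZsGreen1, expanded without cloning and frozen, so each group is a single mixed pool of cells, and a difference between the pools cannot be told apart from an effect of *Phf2*. Since that guide has no match, DNA breaks by Cas9 are not expected in mock cells. Effects of the cuts themselves cannot be told apart from an effect of *Phf2* either. The 3 replicates are wells of a single experiment, and the p-values measure the spread between wells only. C2C12 myotubes grow without nerve and are less mature than muscle fibers.

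The receptor is a ring of subunits in the muscle membrane that opens a cation channel when it binds acetylcholine. The fetal receptor and that of uninnervated muscle hold alpha, beta, delta and gamma subunits (*Chrna1*, *Chrnb1*, *Chrnd* and *Chrng*), and after innervation the epsilon subunit (*Chrne*) takes the place of gamma. Agrin from the nerve binds LRP4, which activates the kinase MuSK, and DOK7 binds MuSK inside the cell and is needed for its activity. Rapsyn (*Rapsn*) holds the receptors together in clusters. ColQ anchors acetylcholinesterase, the enzyme that breaks down acetylcholine, in the synaptic basal lamina. Myogenic transcription factors such as MyoD and myogenin bind E-boxes, and E-boxes near the start of receptor subunit genes are textbook examples of such sites.

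The promoters of 5 of the genes are printed because they show where E-boxes lie in genes that are described together below. Sequences are from RefSeq (GRCm38.p6), for 6 of the 10 genes matched by symbol; *Chrnd*, *Lrp4*, *Rapsn* and *Colq* were not analysed here in this respect. Each runs 5′ to 3′ from 250 bases before the start of the gene to 50 bases after it. The start is that of the RefSeq transcript, which for *Chrng* is position 87205811, inside the gene as GENCODE bounds it. Capitals mark the E-box CANNTG and the N-box CCGGAA (a site of the transcription factor GABP), searched on both strands. The windows are chr2:73580289-73580588 (minus strand) for *Chrna1*, chr11:69795888-69796187 (minus strand) for *Chrnb1*, chr1:87205561-87205860 (plus strand) for *Chrng*, chr11:70619145-70619444 (minus strand) for *Chrne* and chr4:58285712-58286011 (plus strand) for *Musk*.
Chrna1: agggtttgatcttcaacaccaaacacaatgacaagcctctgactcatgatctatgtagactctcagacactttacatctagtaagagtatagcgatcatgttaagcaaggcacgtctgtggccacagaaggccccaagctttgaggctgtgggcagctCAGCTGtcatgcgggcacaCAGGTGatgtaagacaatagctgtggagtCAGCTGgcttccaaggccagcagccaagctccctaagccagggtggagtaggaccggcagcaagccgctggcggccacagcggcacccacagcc
Chrnb1: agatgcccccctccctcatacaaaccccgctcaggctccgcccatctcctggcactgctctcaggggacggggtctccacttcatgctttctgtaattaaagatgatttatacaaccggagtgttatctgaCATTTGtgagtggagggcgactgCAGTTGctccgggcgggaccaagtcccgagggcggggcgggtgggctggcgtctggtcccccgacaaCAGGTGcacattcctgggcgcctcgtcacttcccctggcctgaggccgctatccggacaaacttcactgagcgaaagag
Chrng: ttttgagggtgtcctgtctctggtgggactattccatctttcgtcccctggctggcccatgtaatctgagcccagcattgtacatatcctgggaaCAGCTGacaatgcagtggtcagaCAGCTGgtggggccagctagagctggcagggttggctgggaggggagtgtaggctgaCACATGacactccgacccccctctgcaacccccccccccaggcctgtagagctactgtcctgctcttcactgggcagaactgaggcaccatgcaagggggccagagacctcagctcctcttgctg
Chrne: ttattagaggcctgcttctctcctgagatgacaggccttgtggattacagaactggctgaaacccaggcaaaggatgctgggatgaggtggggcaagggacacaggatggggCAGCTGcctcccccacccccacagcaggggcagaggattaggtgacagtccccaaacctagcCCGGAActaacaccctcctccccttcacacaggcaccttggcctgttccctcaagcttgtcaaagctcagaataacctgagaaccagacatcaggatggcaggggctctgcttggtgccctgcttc
Musk: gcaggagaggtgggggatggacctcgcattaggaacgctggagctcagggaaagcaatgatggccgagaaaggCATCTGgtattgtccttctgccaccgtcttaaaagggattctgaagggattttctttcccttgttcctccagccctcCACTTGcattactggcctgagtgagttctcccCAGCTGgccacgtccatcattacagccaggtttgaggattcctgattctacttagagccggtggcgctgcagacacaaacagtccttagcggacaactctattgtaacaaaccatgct

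An E-box was in each of these 5 windows and in that of 1 of the 2 *Dok7* starts. There were 3 in *Chrna1*, 3 in *Chrnb1*, 3 in *Chrng*, 3 in *Musk* and 1 in *Chrne*. E-boxes are common, since 72.3% of the 32851 promoters of this length held at least 1, with a mean of 1.39. The form CAGCTG was in *Chrna1* (2 matches), *Chrng* (2 matches), *Chrne* (1 match) and *Musk* (1 match), and in 16.3% of all promoters. In *Chrna1* its first bases lay at -92 and -44 from the start, and in *Chrng* at -155 and -132. The forms CACCTG and CAGGTG were in *Chrna1* and *Chrnb1* with 1 match each, and in 20.2% of all promoters. The N-box was in *Chrne* alone of the 6 genes, at -76, and in 14.9% of all promoters. These matches describe the letters only.

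Totals of the count matrix ran from 52526109 to 67502788 per library. These are estimates of StringTie, in which a read pair adds about 4.0 counts. The targeted gene *Phf2* was at 102.4, 95.5 and 104.6 CPM (counts scaled to a common library size with TMM) in the control libraries and at 41.1, 37.6 and 38.6 CPM in the *Phf2* KO libraries (log2 fold change -1.37, adjusted p = 8.32e-09). The labelled cell type was checked by its markers, and all 10 skeletal muscle markers were detected, at a summed level of 8670 to 10200 CPM in control cells and 6870 to 7380 CPM in *Phf2* KO cells. Markers of Schwann cells summed to at most 4.24 CPM, with *Sox10* at 0. The 6 neuron markers summed to 6.51 to 10.7 CPM in control cells and 5.13 to 6.13 CPM in *Phf2* KO cells, with *Chat* and *Slc18a3* at 0; the part of this in the results was not tested.

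Transcripts of the fetal receptor were lower in *Phf2* KO cells for all 4 of its subunits, by 1.31 to 1.52 fold. *Musk*, *Dok7* and *Colq* were lower as well, while *Lrp4* and *Rapsn* were lower by at most 1.10 fold and did not pass the test. In all, 7 of the 10 genes fell with an adjusted p under 0.05 (edgeR's quasi-likelihood test, adjusted over the 17310 genes that passed the filter on low counts), and none rose; 3.26% of the 17310 genes fell and 3.22% rose at this threshold, 6.48% in either direction. All 10 genes passed the filter. The median log2 fold change of the 10 genes was -0.46, against -0.00096 for all genes tested. In CPM, the highest *Phf2* KO library was under the lowest control library for 10 of the 10 genes. In TPM, the groups overlapped for *Lrp4* and *Chrne*. The separation in CPM held for 12.2% of all genes tested, and the opposite, all *Phf2* KO libraries above all controls, for 12.9%. The plots of levels and of fold changes give these values by gene.

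**Figure D1:**
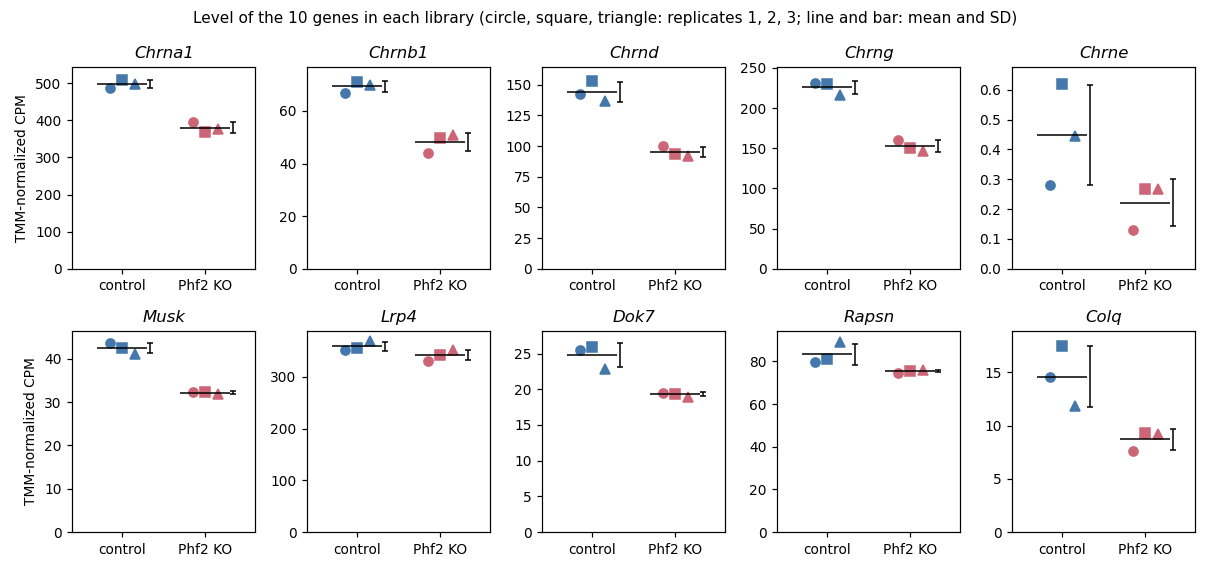
TMM-normalized CPM (vertical axes, from 0) of each of the 10 genes in the 3 control and 3 *Phf2* KO libraries. Symbols are replicates, lines are means and bars are SD; the groups do not overlap in any panel, and they come closest for *Chrne*, *Lrp4* and *Rapsn*.

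*Chrna1* (ENSMUSG00000027107, chromosome 2, 73563215 to 73580338, minus strand) encodes the alpha subunit, which carries most of the acetylcholine binding site. Its level was 487.4, 509.6 and 497.0 CPM in control replicates 1, 2 and 3, and 396.7, 367.5 and 376.2 CPM in *Phf2* KO replicates 1, 2 and 3. The groups were far apart relative to their spread, since the control mean was 498.0 ± 11.1 CPM and the *Phf2* KO mean 380.1 ± 15.02 CPM (SD, n = 3 in each). On the log2 scale the change was -0.39 with a standard error of 0.042 (adjusted p = 1.02e-04), the smallest fall of the 4 fetal subunits.

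*Chrnb1* (ENSMUSG00000041189, chromosome 11, 69784036 to 69795943, minus strand) encodes the beta subunit, which is phosphorylated in response to agrin. It was at 67.0, 71.2 and 70.0 CPM in control cells and at 44.2, 49.7 and 50.7 CPM in *Phf2* KO cells, with *Phf2* KO replicate 1 the lowest. This is a log2 fold change of -0.53 ± 0.060 (SE) with an adjusted p of 1.62e-04.

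*Chrnd* and *Chrng*, the delta and gamma subunit genes, are neighbours on the plus strand of chromosome 1, at 87190607 to 87200070 (ENSMUSG00000026251) and 87204657 to 87212694 (ENSMUSG00000026253), with 4.6 kb between them. *Chrnd* was at 142.5, 153.1 and 136.9 CPM in control cells and at 99.96, 93.2 and 92.2 CPM in *Phf2* KO cells. Its log2 fold change of -0.60 ± 0.051 (SE, adjusted p = 2.16e-05) was the largest of the fetal subunits. *Chrng* was at 231.0, 230.6 and 216.7 CPM in control cells and at 160.9, 150.2 and 146.1 CPM in *Phf2* KO cells. The change of *Chrng* was -0.57 ± 0.049 (SE) on the log2 scale, at an adjusted p of 2.27e-05. The delta and gamma genes thus stood at 66.0% and 67.4% of their control levels. In the fits of TPM (the length-scaled abundance that StringTie gives), *Chrng* was not past the threshold, with an adjusted p of 0.118 on log2(TPM + 1) and 0.110 on log2(TPM + 0.1). StringTie also assembled loci of its own, and in control replicates 1 and 3 the locus over *Chrng* ran on to position 87240488, whereas in the other 4 libraries it ended at 87212694 or 87212826. The values given are those of the reference gene.

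*Chrne* (ENSMUSG00000014609, chromosome 11, 70614883 to 70619216, minus strand), the adult subunit gene, was barely detected. Its level was 0.28, 0.62 and 0.45 CPM in control cells and 0.13, 0.27 and 0.27 CPM in *Phf2* KO cells. These are 16, 36 and 26 counts against 8, 14 and 18 counts, or about 2 to 9 read pairs per library. The highest *Phf2* KO library was just below the lowest control library in CPM, and the groups overlapped in TPM. The log2 fold change of -1.02 had a 95% interval from -2.29 to 0.26 (adjusted p = 0.391), so a change of this gene was not detectable at this depth.

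**Figure D2:**
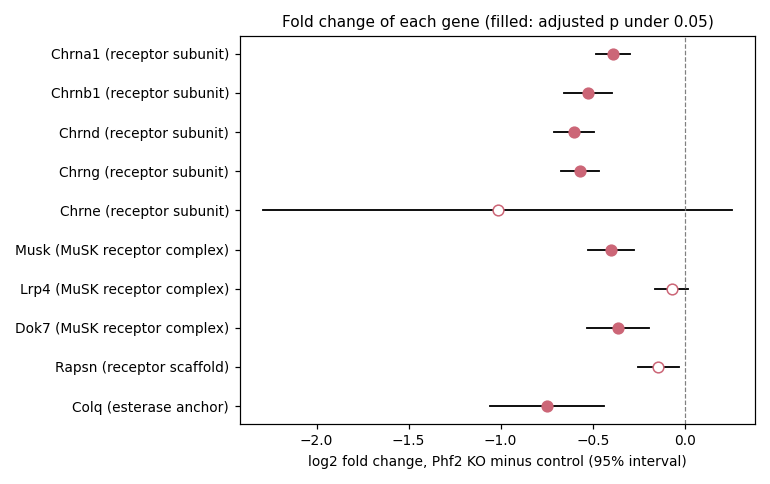
Log2 fold change of each gene (*Phf2* KO minus control, horizontal axis) with its 95% interval from the quasi-likelihood fit. Filled points have an adjusted p under 0.05; the interval of *Chrne* is far wider than the others and, like that of *Lrp4*, spans 0.

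TPM is scaled by transcript length and allows the levels of different genes to be set side by side. In control cells, mean TPM was highest for *Chrna1* (245.0 ± 4.99, SD, n = 3), followed by *Chrng* (163.9 ± 21.4), *Rapsn* (112.2 ± 7.23), *Chrnd* (112.0 ± 4.82), *Lrp4* (95.5 ± 3.72), *Chrnb1* (72.0 ± 2.12), *Dok7* (17.9 ± 1.63), *Musk* (10.4 ± 0.225), *Colq* (10.2 ± 1.91) and *Chrne* (0.574 ± 0.228). *Rapsn* and *Chrnd* overlapped in this order, and so did *Musk* and *Colq*. In *Phf2* KO cells, mean TPM was 188.6 ± 6.30 for *Chrna1*, 123.9 ± 2.55 for *Chrng*, 102.4 ± 2.86 for *Rapsn*, 91.3 ± 4.03 for *Lrp4*, 75.4 ± 2.82 for *Chrnd* and 50.1 ± 4.26 for *Chrnb1*. *Lrp4* thus stood above *Chrnd* in every *Phf2* KO library and below it in every control library. The TPM of the 5 subunits summed to 585.2, 626.3 and 568.8 in control cells and to 444.0, 430.1 and 440.9 in *Phf2* KO cells.

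The makeup of the subunit pool was compared by ratios of TPM within each library, by an exact permutation test (two-sided). With 3 libraries against 3 its p cannot go under 0.1, so no ratio could pass 0.05. The *Chrnd* to *Chrna1* ratio was 0.468, 0.468 and 0.435 in control cells and 0.407, 0.405 and 0.387 in *Phf2* KO cells, without overlap (log2 difference -0.19, exact p = 0.1, adjusted p = 0.25 over 5 ratios). The *Chrnb1* to *Chrna1* ratio was 0.291, 0.297 and 0.293 against 0.235, 0.283 and 0.280, also without overlap (log2 difference -0.15, exact p = 0.1, adjusted p = 0.25). This difference rests largely on *Phf2* KO replicate 1, without which it was -0.062. The *Chrng* to *Chrna1* ratio overlapped, with 0.682, 0.744 and 0.579 against 0.656, 0.679 and 0.637 (log2 difference -0.017, exact p = 0.9). This ratio depended on the values used, since with counts per kb of exon in place of TPM the log2 difference was -0.18 (exact p = 0.1). *Chrne* amounted to 0.203%, 0.422% and 0.427% of *Chrng* in control cells and to 0.120%, 0.567% and 0.272% in *Phf2* KO cells, and the groups overlapped (log2 difference -0.33, exact p = 0.7, adjusted p = 0.875). The *Chrne* to *Chrna1* ratio overlapped as well (log2 difference -0.34, exact p = 0.7). The fetal subunits thus made up nearly the whole pool in every library.

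**Figure D3:**
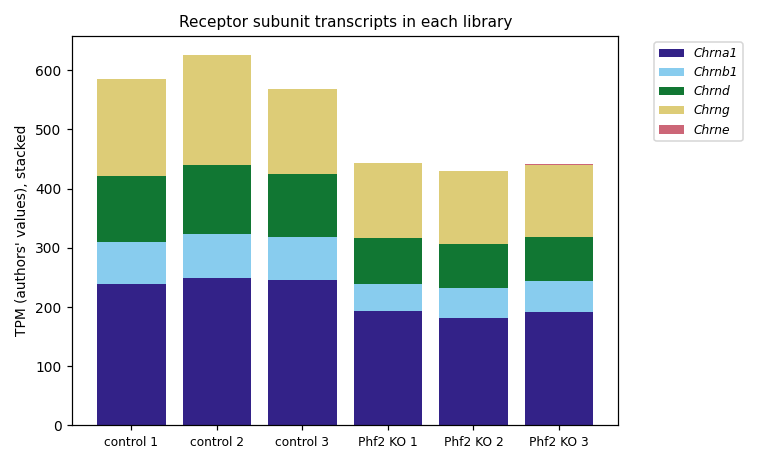
TPM of the 5 receptor subunit genes, stacked (vertical axis, from 0), in each of the 6 libraries. The stacks reach 568.8 to 626.3 in control cells and 430.1 to 444.0 in *Phf2* KO cells, and *Chrne* is at most 0.162% of any stack.

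Of the 3 genes of the MuSK receptor complex, *Musk* and *Dok7* passed the test and *Lrp4* did not. *Musk* (ENSMUSG00000057280, chromosome 4, 58285960 to 58374303, plus strand), the kinase gene, was at 43.6, 42.5 and 41.2 CPM in control cells and at 32.4, 32.3 and 31.8 CPM in *Phf2* KO cells. The spread within each group was small, and the log2 fold change was -0.40 ± 0.059 (SE, adjusted p = 0.00107). *Dok7* (ENSMUSG00000044716, chromosome 5, 35056766 to 35087839, plus strand), the gene of the MuSK adaptor, was at 25.5, 25.9 and 22.8 CPM against 19.5, 19.4 and 19.0 CPM. Its log2 fold change was -0.36 ± 0.079 (SE, adjusted p = 0.0140). The call of *Dok7* was lost without control replicate 1 (adjusted p = 0.0512), control replicate 2 (0.0827), *Phf2* KO replicate 2 (0.0545) or *Phf2* KO replicate 3 (0.0639). In the fits of log2(TPM + 1), neither *Musk* (adjusted p = 0.128) nor *Dok7* (adjusted p = 0.300) was past the threshold.

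*Lrp4* (ENSMUSG00000027253, chromosome 2, 91457511 to 91513779, plus strand), the agrin receptor gene, was at 351.9, 355.8 and 368.4 CPM in control cells and at 331.5, 341.7 and 351.3 CPM in *Phf2* KO cells. The groups were next to each other without overlap in CPM. In TPM they overlapped, at 93.3, 93.4 and 99.8 in control cells and 87.3, 91.2 and 95.3 in *Phf2* KO cells. The log2 fold change of -0.071 had a 95% interval from -0.16 to 0.018 (adjusted p = 0.391). This interval and that of *Musk* (-0.53 to -0.27) did not overlap, though the difference between the genes was not tested. The TPM ratio of *Lrp4* to *Musk*, chosen after its values were seen and given without a test, was 8.76, 8.996 and 9.78 in control cells and 11.2, 11.7 and 12.2 in *Phf2* KO cells.

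*Rapsn* (ENSMUSG00000002104, chromosome 2, 91035620 to 91045729, plus strand), the rapsyn gene, was at 79.8, 80.9 and 89.0 CPM in control cells and at 74.7, 75.7 and 75.8 CPM in *Phf2* KO cells. Its log2 fold change was -0.14 with a 95% interval from -0.25 to -0.032 before adjustment, and it did not pass the threshold over all genes (adjusted p = 0.129). A noncoding gene on the opposite strand, *Gm13778*, shares 4 exon bases with it. The *Rapsn* to *Chrna1* ratio of TPM, also chosen after its values were seen, was 0.448, 0.437 and 0.489 in control cells and 0.516, 0.562 and 0.551 in *Phf2* KO cells, so there was more rapsyn transcript per alpha subunit transcript in all 3 *Phf2* KO libraries.

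*Colq* (ENSMUSG00000057606, chromosome 14, 31523082 to 31591343, minus strand) had the largest fold change among the genes past the threshold. It was at 14.5, 17.5 and 11.8 CPM in control cells and at 7.59, 9.29 and 9.23 CPM in *Phf2* KO cells. The control libraries were spread widely, but the lowest of them was above every *Phf2* KO library, and *Colq* fell to 59.6% of control (log2 fold change -0.75 ± 0.14, SE; adjusted p = 0.00709). Its adjusted p was 0.0530 without control replicate 2, and 0.221 and 0.205 in the fits of log2(TPM + 1) and log2(TPM + 0.1). *Colq* is not cleanly separable from *Gm49387*, a gene on the same strand that shares 199 exon bases with it. *Gm49387* had 0 counts in all 6 libraries of the count table, but its TPM was 15.1, 12.9 and 13.8 in control cells and 12.7, 14.4 and 14.1 in *Phf2* KO cells, with overlap. Since the 2 tables treat *Gm49387* differently, the level of *Colq* is uncertain in both. *Ache*, the gene of the esterase that ColQ anchors, was at 9.10, 9.19 and 6.46 CPM in control cells and at 7.15, 8.78 and 7.62 CPM in *Phf2* KO cells, and these overlapped (log2 fold change -0.072, 95% interval from -0.40 to 0.26, adjusted p = 0.868). The *Colq* to *Ache* ratio of TPM was 1.33, 1.58 and 1.31 against 0.900, 0.853 and 0.996, chosen after its values were seen.

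The 7 calls held in each of 10 alternative fits on the counts with all 6 libraries, among them exactTest, DESeq2 and a model with a block for the replicate number. Over all 17310 genes, the fit with exactTest called 1129, of which 592 were lower and 537 higher. The study also used exactTest but reported far fewer genes past its threshold. Of the 10 genes, its text names only *Chrnb1* among the downregulated ones. That text gives genes of enriched terms rather than the full list, so a gene it leaves out may still have been called there. The cause of the gap in the number of genes called was not tested. In the fits of log2(TPM + 1) and log2(TPM + 0.1), 3 of the 10 genes were past the threshold (*Chrna1*, *Chrnb1* and *Chrnd*). Over all 17310 genes these fits called 127 and 153, against 1122 in the fit reported. With 1 library left out, 5 to 7 were past it. The plot of adjusted p by setting shows both.

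**Figure D4:**
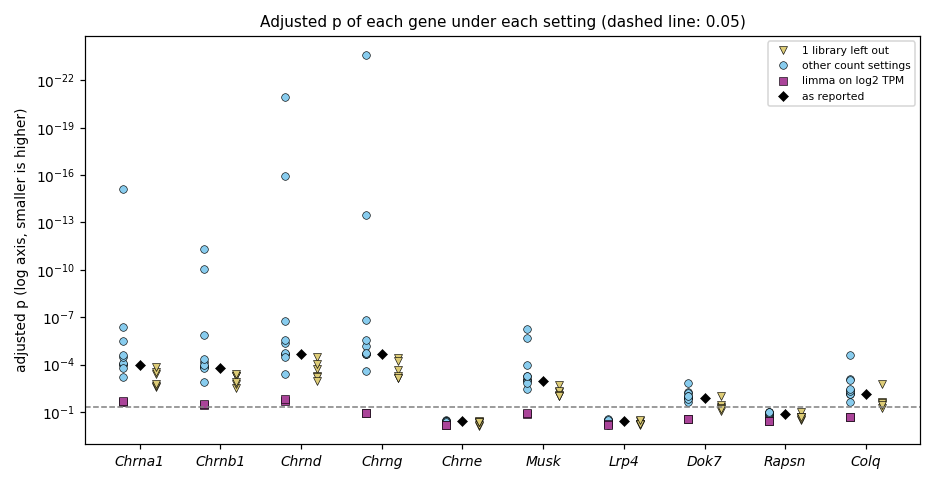
Adjusted p (log axis, smaller values higher) of each gene as reported and under each alternative; the dashed line is 0.05. *Chrna1*, *Chrnb1* and *Chrnd* lie above the line under every setting, and *Chrne*, *Lrp4* and *Rapsn* lie below it under each setting that gave them an adjusted p.

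The other genes of the junction were counted on a list of 66 genes, and 61 of these had enough counts to be tested. In this list 9 genes fell and 3 rose, against 3.26% and 3.22% of all genes tested, and the median log2 fold change was -0.0086. The count of 12 became 6 without control replicate 1, 6 without control replicate 2 and 6 without *Phf2* KO replicate 2, and it was 1 in each fit of TPM. Without those libraries the calls over all genes fell from 1122 to 769, 468 and 577. The ligand genes did not pass the test. *Agrn*, the agrin gene, was at 196.6, 174.5 and 138.7 CPM in control cells and at 197.1, 173.7 and 163.5 CPM in *Phf2* KO cells (log2 fold change 0.068, 95% interval from -0.33 to 0.46).

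Of the 2 neuregulin receptor genes tested, 1 fell. *Erbb3*, a receptor of neuregulin, was at 59.6, 61.4 and 52.1 CPM in control cells and at 31.7, 31.5 and 36.4 CPM in *Phf2* KO cells. Its log2 fold change was -0.80 ± 0.076 (SE, adjusted p = 4.79e-05), and it was the gene of the list that passed in the TPM fits as well.

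Genes of the postsynaptic cytoskeleton moved in both directions. *Macf1*, a linker of actin and microtubules, fell by 0.27 on the log2 scale (adjusted p = 0.0103). *Phldb2*, a gene of a microtubule anchor at the cell cortex, rose by 0.24 (adjusted p = 0.00400). Of 6 basal lamina genes tested, *Nid2*, the nidogen 2 gene, rose by 0.29 (adjusted p = 8.53e-04) and *Lama5*, a laminin chain gene, fell by 0.15 (adjusted p = 0.0481). *Lama5* was above the threshold in all 6 fits without 1 library, with exactTest (adjusted p = 0.173), with limma-voom (0.0536) and in both TPM fits. *Macf1* lost its call in 4 of the 6 fits without 1 library.

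Of 10 regulators of synaptic transcription tested, *Myog*, the myogenin gene, fell by 0.34 on the log2 scale (adjusted p = 0.0221, lost in 4 of the 6 fits without 1 library), and the other 9 did not pass. They include *Gabpa* and *Gabpb1*, the genes of GABP, at log2 fold changes of 0.0066 and -0.0086, and *Hdac4*, a histone deacetylase gene, at 0.021. *Myod1*, the MyoD gene, had a log2 fold change of -0.18 with every *Phf2* KO library below the controls (adjusted p = 0.0679). *Hdac9* was at -0.52 (adjusted p = 0.438), and *Myf6*, at no more than 24 counts in a library, was at -1.33 (adjusted p = 0.462). None of 5 glycosylation genes passed. *Scn4a*, the sodium channel gene of muscle, was at 18.6, 17.2 and 14.4 CPM in control cells and at 8.24, 10.5 and 10.96 CPM in *Phf2* KO cells (log2 fold change -0.75 ± 0.13, SE; adjusted p = 0.00291). *Trim63*, a muscle ubiquitin ligase gene, fell by 0.38 (adjusted p = 0.0277), and this call was lost in 5 of the 6 fits without 1 library.

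**Figure D5:**
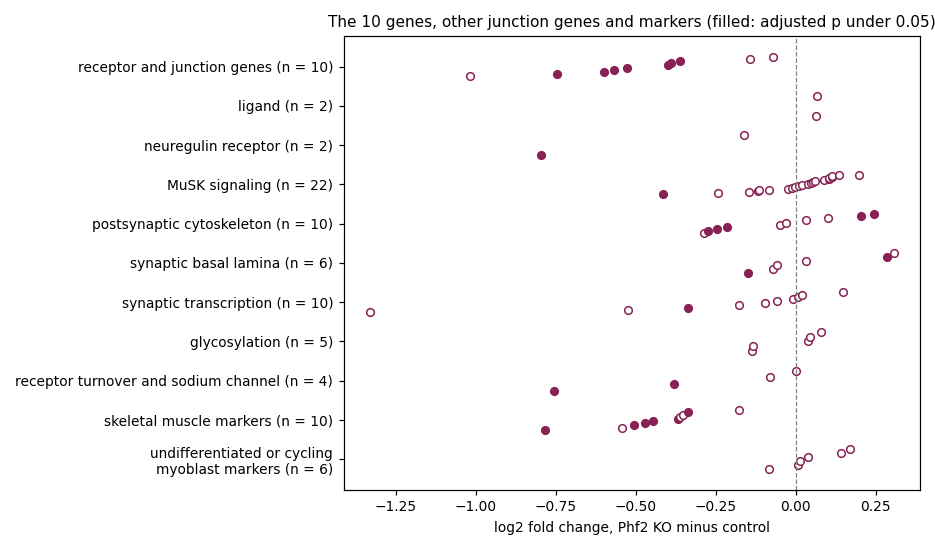
Log2 fold change (*Phf2* KO minus control, horizontal axis) of the 10 genes, of the 61 other junction genes tested by role, and of 2 marker lists; filled points have an adjusted p under 0.05. The 10 genes and the skeletal muscle markers lie left of 0, and most genes of MuSK signaling, glycosylation and synaptic transcription lie near it.

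Of the 11 nicotinic subunit genes of other tissues, 8 had no counts in any library, where 3 read pairs would have been 0.178 to 0.228 CPM. *Chrnb2*, a neuronal beta subunit gene, was the only one that passed the filter, at 2.37, 2.76 and 2.59 CPM in control cells and 1.90, 1.75 and 2.70 CPM in *Phf2* KO cells, with overlap (log2 fold change -0.28, adjusted p = 0.581). Of the 5 genes of receptor assembly, 3 were tested and none passed. They were *Lynx1*, *Canx* and *Unc50*, with log2 fold changes of -0.078, -0.044 and -0.083.

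The nearest genes that passed the filter were examined on each side of the 10 genes. There were 18 apart from the 10 themselves, of which 1 rose and none fell (6.48% of all genes tested passed in either direction), with a median log2 fold change of 0.041. The gene that rose was *Svep1*, which encodes an extracellular adhesion protein and lies 79.1 kb from *Musk*, with means of 29.2 ± 1.96 CPM in control and 38.9 ± 2.78 CPM in *Phf2* KO cells (SD, n = 3 in each). It rose by 0.41 on the log2 scale (adjusted p = 0.00415). *Eif4e2*, the neighbour of *Chrng* on its far side from *Chrnd*, had a log2 fold change of -0.12 (adjusted p = 0.117). *Fgf11*, which lies 0.1 kb from *Chrnb1*, had -0.18 (adjusted p = 0.240). *Eif4e2* and *Fgf11* are among the 4 neighbours with a negative log2 fold change, and the other 14 of the 18 had a positive one.

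The skeletal muscle markers moved in the same direction as the receptor genes. Each of the 10 was at a lower mean level in *Phf2* KO cells, and their median log2 fold change was -0.41. Of the 10, 6 passed the test, where 3.26% of all genes tested fell at this threshold. *Mymk*, the fusion gene, fell from 347.4 ± 24.7 to 244.8 ± 16.1 CPM (SD, n = 3), and *Ckm*, the muscle creatine kinase gene, from 201.6 ± 20.0 to 117.0 ± 6.98 CPM (SD, n = 3). None of 6 markers of undifferentiated or cycling myoblasts passed the test, and their summed level was 207 to 227 CPM in control cells and 205 to 228 CPM in *Phf2* KO cells. In bulk RNA, fewer differentiated cells and less RNA of these genes per cell cannot be told apart, and the part of either in the falls above was not tested.

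Each of the 10 genes was also set against the mean log2 CPM of the 10 muscle markers in the same library, a measure chosen after seeing the data. The marker mean itself had a log2 difference of -0.43 between *Phf2* KO and control cells. A gene that fell by less than the markers is thus higher on this scale, though its own level did not rise. On this scale 5 genes were lower and 5 were higher in *Phf2* KO cells, and the exact permutation test again cannot go below 0.1. *Chrnd* was lower by 0.17 and *Chrng* by 0.14 on the log2 scale, without overlap (exact p = 0.1 for each). *Lrp4* was higher by 0.36 without overlap (exact p = 0.1), and *Rapsn* by 0.29 with overlap (exact p = 0.2). *Dok7* was higher by 0.074, also without overlap (exact p = 0.1). *Chrna1* was at 0.043, *Musk* at 0.034 and *Chrnb1* at -0.095, with overlap in each case. *Colq* was at -0.30 and *Chrne* at -0.59, with overlap of the groups in each case.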

How the data were processed

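Libraries of polyadenylated RNA were sequenced as paired-end reads of 150 bp. Alignment (HISAT2, mm10) and counting (StringTie) were done by the authors; versions, annotation and strand setting are not given in the sources used here. Its gene table, as deposited, gives estimated counts that are whole and differ in their total between libraries. Covered bases per count had a median of 74.98 to 74.99 in genes with 1 transcript and at least 500 counts, so a pair of reads adds about 4.0 counts, and the precision is lower than the counts alone would give. Coverage and TPM are signals from the tables that the authors deposited for each library; rows of reference genes were used, since assembled loci list the same transcripts again. Coordinates are those of GENCODE M21 (GRCm38, the assembly of mm10).

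Genes were kept by filterByExpr at a minimum count of 10. After TMM scaling, the groups were compared in R 4.3.3 with edgeR 4.0.16 (quasi-likelihood, robust), with Benjamini-Hochberg adjustment over 17310 genes and a threshold of 0.05. Standard errors are the log2 fold change divided by the square root of F. Alternatives were exactTest, DESeq2 1.42.0, limma-voom and limma on log2 TPM (limma 3.58.1), other normalizations and filters, counts divided by 4, counts per kb of exon for the ratios, the replicate block and leaving out each library. The procedure was tested on simulated data. Figures were drawn with Python 3.11.15.

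The 10 genes, the lists and the tests were chosen with earlier results of these data known. Named besides the 10 were *Phf2*, *Agrn*, *Ache*, at most 3 genes past the threshold with the largest change in each role of the junction list, nicotinic subunits and assembly genes that passed the filter or the threshold, and neighbours past it (some are not reported here); *Gabpa*, *Gabpb1*, *Hdac4*, *Hdac9*, *Myod1*, *Myf6*, *Lynx1*, *Canx*, *Unc50*, *Eif4e2*, *Fgf11*, *Mymk* and *Ckm* were named after their values were seen.

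The replicate numbers were treated as a pairing only in alternatives, and the tests reported above use no pairing. No label gives the number a meaning, but libraries that share one deviated together from their groups. Across the 10923 genes at 5 CPM or more on average (genes not being replicates), r was 0.25, 0.236 and 0.158 for equal numbers and at most -0.013 for unequal ones. Deviations from a group mean sum to 0 within the group. Positive values for equal numbers thus force the unequal ones to be negative on average. The study's test has no block, so the block was an alternative.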

Additional observations from a re-analysis of the deposited data

How the results depend on the processing

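The number of the 10 genes past the threshold, 7, was the same in the 10 other fits on counts with all libraries, the replicate block included (7 of 10), and 5 to 7 without 1 library. It was 3 when limma was fitted to log2(TPM + 1) or to log2(TPM + 0.1). For the other junction genes, the 12 became 1 in each of these TPM fits, 6 to 10 without 1 library and 11 to 15 otherwise, with 12 in the replicate block. For the neighbouring genes, the 1 became 0 in both TPM fits and stayed at 1 in every other. The cause of the difference of the TPM fits was not tested. Each of the 10 genes was lower in *Phf2* KO cells under every setting that tested it. Calls were lost 13 times, each in a TPM fit or without 1 library.

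The *Chrng* and *Chrne* ratio differences changed sign under some settings, and the *Chrnb1* and *Chrnd* ones did not. On log2(TPM + 1), the *Chrne* to *Chrna1* difference was 0.19 and the *Chrne* to *Chrng* difference 0.21. Without 1 library the range was -0.92 to 0.23 for *Chrne* to *Chrna1*, -0.88 to 0.24 for *Chrne* to *Chrng*, -0.12 to 0.063 for *Chrng* to *Chrna1*, -0.20 to -0.062 for *Chrnb1* to *Chrna1* and -0.23 to -0.17 for *Chrnd* to *Chrna1*. The *Ache* log2 fold change was 0.015 and 0.017 in the TPM fits and -0.22 to 0.013 without 1 library, and that of *Agrn* was -0.061 to 0.18 without 1 library. The replicate block changed none of the calls of the 10 genes. *Chrne* rests on few read pairs. It was not tested with counts divided by 4 or at a CPM of at least 1, and DESeq2 gave it no adjusted p.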
